A study of Mus musculus with 11 samples.

Results

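The 39 clustered Hox genes were followed in epithelial cells of the mouse colon. They were taken as every row of a table of 54513 genes whose symbol names a Hoxa, Hoxb, Hoxc or Hoxd gene with its paralog number, and no measured value entered the choice. Mice were wild type (WT) or lacked both miR-181a1-b1 and miR-181a2-b2, the clusters that encode miR-181a and miR-181b (double knockout, DKO). They were labelled baseline or had received 2% dextran sulphate sodium (DSS), a polymer that injures the colonic epithelium, over 7 days, followed by 2 days of recovery. Lymphocytes were depleted on Percoll, a density medium, and messenger RNA was sequenced from 2 baseline WT, 3 baseline DKO, 3 DSS WT and 3 DSS DKO libraries. The labels give neither the strain nor the age of the mice, the segment of colon taken, or whether 1 library is 1 mouse. Of the 39 genes, 29 had enough counts to be tested, namely 11 Hoxa, 9 Hoxb and 9 Hoxd genes. Hoxb1 and all 9 Hoxc genes did not.

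Hox proteins are homeodomain transcription factors that give cells their position along the body axis. Their genes lie in 4 clusters, and the order of genes in a cluster, from paralog 1 to paralog 13, follows the order from head to tail in which they are expressed in the embryo. In the gut the last paralogs belong to the hindgut and rectum, and adult colonic epithelium keeps part of this pattern. Cdx1, Cdx2 and retinoic acid act on the clusters from upstream, polycomb and trithorax proteins hold genes silent or active, and Pbx and Meis proteins bind DNA together with Hox proteins. The clusters also hold microRNA genes and noncoding transcripts such as Hottip, next to Hoxa13.

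On mouse build GRCm38 (mm10) the Hoxa genes run from 52155590 to 52260880 on chromosome 6, the Hoxb genes from 96194316 to 96368256 on chromosome 11, the Hoxc genes from 102921103 to 103036852 on chromosome 15 and the Hoxd genes from 74668310 to 74765142 on chromosome 2. Genes are packed so closely that 16 of the 39 share exon bases with another annotated gene. Hoxd4 shares 52.3% of its exon bases with Hoxd3, Gm28230 and the antisense Hoxd3os1, Hoxb3 shares 52.9% with the antisense Hoxb3os and Hoxa11 shares 34.98% with the antisense Hoxa11os. No source used here gives the strand setting of the counting, so reads of such neighbours cannot be told apart.

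Libraries held 41631951 to 52761900 counts, of which 11468 to 29988 fell on Hox genes. The epithelial markers summed to 17277 to 24555 CPM (counts scaled to a common library size, with TMM factors), and all 10 were present in every library. Stromal and muscle markers summed to 250.2 to 571 CPM with overlapping ranges in the 4 groups. Most of this sum was Col1a1 and Col1a2, with means of 178 and 114 CPM in DSS WT and 132 and 83.4 in DSS DKO. The mean of Dcn went from 8.45 to 39.3 CPM. Of 13 tested, 4 were higher in DKO after DSS and 0 lower, so the sum does not measure stromal content. The smooth muscle genes Acta2, Myh11 and Des did not exceed 1.43 CPM, and Tagln reached 2.30 CPM. The 8 markers of enteric neurons and glia summed to 4.91 to 5.44 CPM in baseline WT and 2.93 to 3.93 in baseline DKO. After DSS they summed to 3.21 to 4.31 in WT and 4.92 to 10.5 in DKO, where 1 of 6 tested was higher and 0 lower. Among them Sox10 was at 0 counts in all DSS and all baseline DKO libraries. Leukocyte markers summed to 174 to 217 CPM in the other groups and to 263 to 339.6 CPM in DSS DKO. Most of the baseline sum was Kit, with means of 154 CPM in WT and 138 in DKO. Between DSS WT and DSS DKO the mean of Ly6g went from 30.4 to 131 CPM, that of Ptprc from 45.2 to 20.7 and that of Cd8a from 16.8 to 6.65. In the test described below, 3 of the 14 were higher in DKO after DSS and 3 lower, so the sum does not measure leukocyte content. The baseline libraries had a male and the DSS libraries a female pattern of sex-linked genes (Xist at 6.75 to 14.5 and at 633 to 906 CPM), so DSS and sex cannot be told apart. Libraries also differed in how expression followed the GC content of transcripts. The fitted log2 level at 60% GC less that at 45% GC was 0.44 to 0.73 in the baseline libraries, -0.16, -0.97 and -0.90 in DSS WT replicates 1, 2 and 3, and 0.21, -0.19 and -0.81 in DSS DKO replicates 1, 2 and 3.

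Hoxb genes gave more than the other clusters together, and paralog 13 the largest share of any single paralog number at baseline. Per kilobase of exon, averaged over the 4 group means, the most abundant members were Hoxb13 (43.3 CPM per kb), Hoxb9 (32.5) and Hoxb6 (21.4). Hoxa10 (10.9), Hoxa7 (10.5), Hoxa13 (9.82), Hoxd13 (9.37) and Hoxb7 (9.10) followed. The ranges over the 11 libraries overlapped between each of these and the next, so the order is one of means only. Low paralogs were scarce: paralogs 1 to 4 together made 4.12% to 6.91% of the summed Hox CPM per kb of a library. Hoxc transcripts made 0.0223% to 0.143%. No Hoxc gene exceeded 10 counts in a library and Hoxc12 had 0 counts in all 11. Within the Hoxa and Hoxb clusters levels were higher towards the last paralogs, with low points at Hoxa4, Hoxa11 and Hoxb8. In the Hoxd cluster only Hoxd13 stood out. Hoxd1 and Hoxd3 were lowest, at 0.0796 and 0.0799 CPM per kb, and the members from Hoxd4 to Hoxd12 lay between 0.305 (Hoxd11) and 0.771 (Hoxd10).

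**Figure D1:**
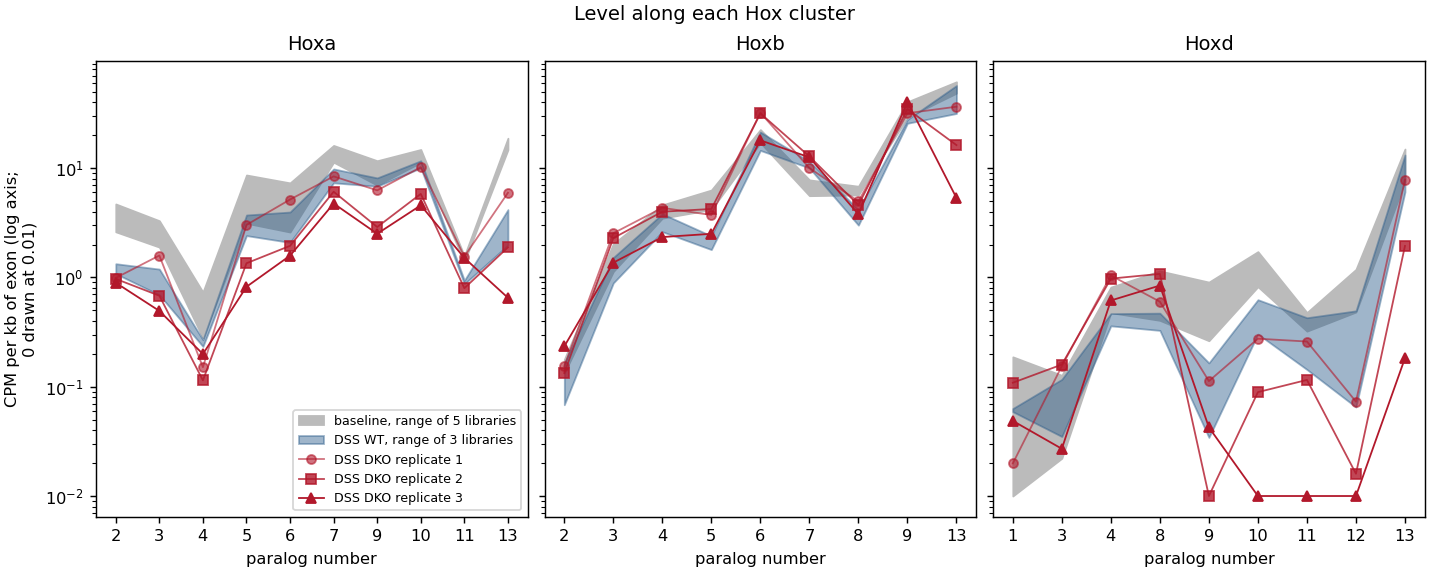
Level of tested Hox genes along their clusters, as CPM per kb of exon on a log axis, against paralog number. Grey bands are the range of the 5 baseline libraries, blue bands that of the 3 DSS WT libraries and red lines the 3 DSS DKO libraries, and values of 0 are drawn at 0.01. DSS DKO replicates 2 and 3 lie below both bands at Hoxa13, Hoxb13 and Hoxd13.

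After DSS the composition shifted in some libraries more than in others. Paralog 13 made 36.1% and 37.6% of the summed Hox CPM per kb in baseline WT and 36.0%, 39.7% and 40.5% in baseline DKO. In DSS WT its share was 39.2%, 37.3% and 28.3%. In DSS DKO replicates 1, 2 and 3 it was 27.9%, 14.6% and 5.82%, so all 3 DSS DKO libraries lay below every other library, the first of them close to DSS WT replicate 3. The share of paralogs 5 to 8 was 27.7% to 30.3% at baseline, 28.2% to 33.9% in DSS WT and 37.8%, 46.3% and 42.2% in DSS DKO. That of paralogs 9 to 12 was 24.9% to 29.6% at baseline, 26.5% to 32.7% in DSS WT and 28.1%, 32.3% and 46.0% in DSS DKO. As shares are parts of a fixed whole, a smaller paralog 13 share makes the others larger without any rise in level. The whole was 197 to 234 CPM per kb at baseline and 180, 138 and 106 in DSS DKO. By cluster, the Hoxb share was 55.9% to 64.1% at baseline, 67.6% to 70.2% in DSS WT and 70.1%, 80.3% and 81.3% in DSS DKO, and the Hoxd share was lowest, at 1.66%, in DSS DKO replicate 3. These shares carry no test, and the summed level of the 39 genes also differed, from 498 to 606 CPM at baseline, 353 to 475 in DSS WT and 260.1 to 447 in DSS DKO.

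**Figure D2:**
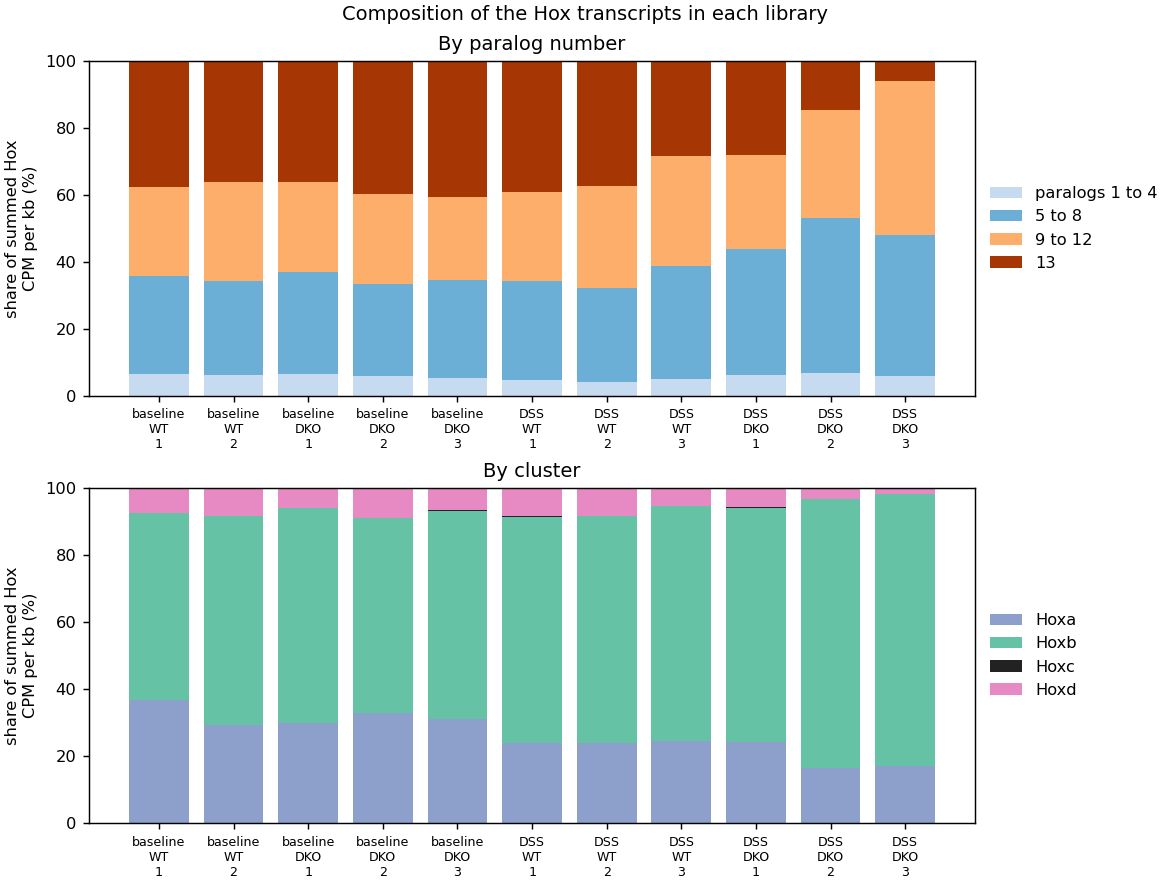
Share of the summed Hox CPM per kb taken by groups of paralogs (upper bars) and by cluster (lower bars) in each library. The paralog 13 part is 36.0% to 40.5% in the baseline libraries and 27.9%, 14.6% and 5.82% in the 3 DSS DKO libraries, and the Hoxc part is barely visible.

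The 3 expressed paralog 13 genes differed most within DSS DKO. Between them these genes act in the hindgut, the urogenital tract and, for Hoxa13 and Hoxd13, the digits. Hoxb13 was at 124 and 113 CPM in WT at baseline, 107, 125 and 136 in DKO at baseline, 126, 97.9 and 69.8 in DSS WT and 80.5, 35.8 and 11.8 in DSS DKO, in the order of the replicates. Its DSS DKO libraries spanned 6.83-fold, and replicate 1 of them overlapped DSS WT. Hoxd13 was at 32.3 and 33.0 CPM in WT at baseline, 18.7, 37.1 and 26.1 in DKO at baseline, 32.8, 26.7 and 15.1 in DSS WT and 19.4, 4.82 and 0.454 in DSS DKO. The span in DSS DKO was 42.8-fold, from 1050 counts in replicate 1 to 20 in replicate 3, against 2.17-fold in DSS WT. Hoxa13 was at 46.5 and 41.3 CPM in WT at baseline, 36.5, 43.0 and 38.2 in DKO at baseline, 10.3, 5.85 and 4.88 in DSS WT and 14.7, 4.66 and 1.61 in DSS DKO. All 6 DSS libraries were below all 5 baseline libraries, and DSS DKO replicate 1 was above every DSS WT library while replicate 3 was below them. All 3 genes, on 3 chromosomes, were thus highest in DSS DKO replicate 1 and lowest in replicate 3, in libraries of 51300629 and 43721939 counts. In DSS WT all 3 were also highest in replicate 1 and lowest in replicate 3, over narrower spans. In bulk libraries fewer cells of a type and less RNA per cell cannot be told apart.

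**Figure D3:**
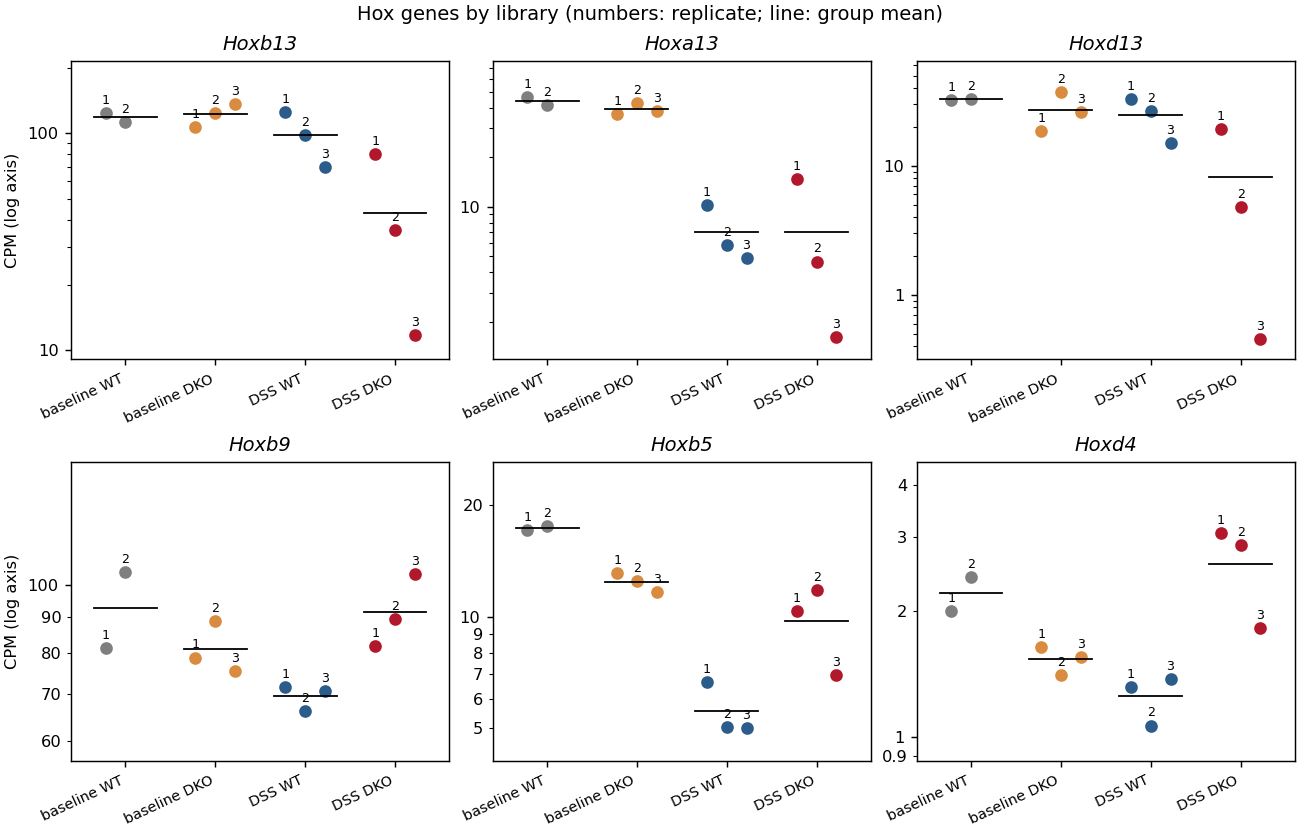
CPM on a log axis of the paralog 13 genes and of Hoxb9, Hoxb5 and Hoxd4 in each of the 11 libraries, with replicate numbers beside the points and group means as lines. Hoxb13, Hoxa13 and Hoxd13 are highest in replicate 1 and lowest in replicate 3 of both DSS DKO and DSS WT, while Hoxb9 lies between 66.3 and 104 CPM in every library.

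The Hoxd genes beside Hoxd13 were low in the same libraries. These genes pattern the limbs and the lumbar and sacral spine. Hoxd12 was at 1.66 and 1.70 CPM in WT at baseline, 1.80, 3.00 and 1.22 in DKO at baseline, 1.25, 0.541 and 0.165 in DSS WT and 0.185, 0.0405 and 0 in DSS DKO. Hoxd10 was at 2.28 and 3.13 CPM in WT at baseline, 1.95, 2.06 and 1.495 in DKO at baseline, 1.14, 0.839 and 0.550 in DSS WT and 0.500, 0.162 and 0 in DSS DKO. Hoxd9 was at 1.29 and 1.94 CPM in WT at baseline, 1.39, 1.501 and 0.563 in DKO at baseline, 0.353, 0.280 and 0.0734 in DSS WT and 0.241, 0 and 0.0907 in DSS DKO. DSS DKO replicate 3 had 0 counts of Hoxd10, Hoxd11 and Hoxd12, which allows up to 3 counts or 0.0680 CPM, and replicate 2 had 0 counts of Hoxd9. Hoxd11 lay between 1.36 and 2.01 CPM at baseline, between 0.606 and 1.80 in DSS WT and at 1.09, 0.486 and 0 in DSS DKO. Going towards Hoxd1 the pattern ended at Hoxd8, which was at 1.29, 1.08 and 0.899 CPM in DSS WT and 1.65, 2.96 and 2.31 in DSS DKO. Over all 29 tested members, the highest DSS DKO library was at least 4 times the lowest for 10, against 2 in DSS WT, 2 in baseline DKO and 0 in baseline WT. Of all genes tested the same held for 10.7%, 7.49%, 8.96% and 4.07%. Among the 10 were Hoxd1 and Hoxd3, each at no more than 0.67 CPM in DSS DKO, and Hoxa13, Hoxb13 and Hoxd9 to Hoxd13.

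The comparison of DKO with WT after DSS asks how loss of miR-181 bears on the injured epithelium. With edgeR's quasi-likelihood test, adjusted by Benjamini-Hochberg over all 19267 genes tested, 2 of the 29 Hox genes were higher in DKO and 0 lower. Of all genes 5.26% were higher and 5.98% lower, 11.2% in either direction. Hoxb5, which acts in lung and in neural crest cells of the gut, was at 17.1 and 17.6 CPM in WT at baseline, 13.1, 12.5 and 11.7 in DKO at baseline, 6.68, 5.03 and 5.01 in DSS WT and 10.4, 11.8 and 6.98 in DSS DKO. Every DSS DKO library was above every DSS WT library, by 0.80 ± 0.20 (SE, adjusted p = 0.0248) on the log2 scale. Hoxd4, a gene of hindbrain and vertebral patterning, was at 2.00 and 2.40 CPM in WT at baseline, 1.64, 1.404 and 1.55 in DKO at baseline, 1.31, 1.06 and 1.38 in DSS WT and 3.07, 2.88 and 1.81 in DSS DKO. Its groups did not overlap after DSS either, with a log2 fold change of 1.05 ± 0.26 (SE, adjusted p = 0.0219). How reads in the exons it shares with Hoxd3 were assigned is not known here. Hoxd3os1, on the other strand there, was at 0.333, 0.336 and 0.385 CPM in DSS WT and 0.537, 0.851 and 1.11 in DSS DKO.

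Along the clusters the signs were split, and no member passed as lower. Of the 18 tested members with paralog numbers 1 to 8, 13 had a log2 fold change above 0 (median 0.13), and of the 11 with numbers 9 to 13, 8 had one below 0 (median -1.03). Over all genes tested the median was 0.026. Hoxb13 gave -1.19 ± 0.54 (SE, adjusted p = 0.191), Hoxd13 -1.59 ± 0.89 (SE, adjusted p = 0.293) and Hoxd12 -2.99 ± 0.89 (SE, adjusted p = 0.0555). Hoxa13 gave 0.0014 ± 0.62 (SE, adjusted p = 0.9995), a value with no direction, as the settings tried gave both signs. Hoxb9, a thoracic gene in the embryo, was at 81.3 and 104 CPM in WT at baseline, 78.9, 88.9 and 75.4 in DKO at baseline, 71.7, 66.3 and 70.6 in DSS WT and 81.9, 89.4 and 103 in DSS DKO. It was higher in all 3 DSS DKO than in all 3 DSS WT libraries, at 0.40 ± 0.13 (SE, adjusted p = 0.0625). Groups did not overlap for 4 members that were higher in DKO (Hoxb5, Hoxb9, Hoxd4 and Hoxd8) and 4 that were lower (Hoxa2, Hoxa4, Hoxa9 and Hoxd10), and of all genes tested the same held for 14% and 17.9%. The count of 2 rested on single libraries: it was 0 without DSS WT replicate 2 or DSS DKO replicate 2 and 1 (Hoxd12, lower) without DSS WT replicate 3. Hoxd12 was called lower in 7 of 18 other settings and Hoxa9 in 5 of 19, DESeq2 among both. The count was 4 without DSS DKO replicate 3, all higher, and 11 without DSS DKO replicate 1, of which 7 were lower, Hoxb13, Hoxd13, Hoxd12, Hoxd10, Hoxa5, Hoxa9 and Hoxa10.

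**Figure D4:**
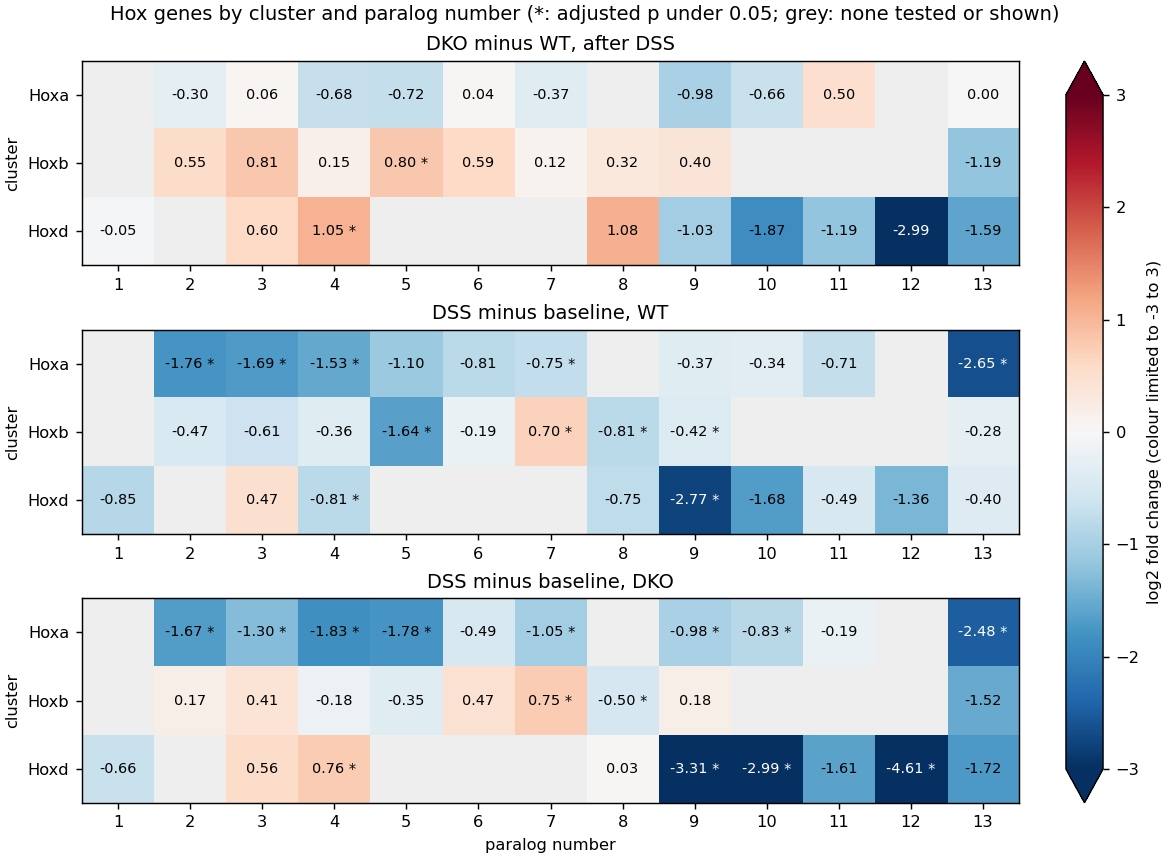
Log2 fold change of tested Hox genes by cluster (rows) and paralog number (columns) in 3 comparisons, with an asterisk where the adjusted p was under 0.05 and grey where no gene was tested or none is shown. After DSS, 2 genes of low paralog number carry an asterisk in the comparison of DKO with WT, and the falls from baseline are mainly in the Hoxa row and at Hoxd9 to Hoxd12. The lower 2 panels and the top panel share libraries.

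At baseline DKO and WT did not differ in any Hox gene past the threshold. By edgeR's quasi-likelihood test 0 of 29 passed and 1 had an unadjusted p under 0.05, and DESeq2 also called 0. Of all genes 0.0104% were higher and 0.0156% lower, 0.026% in either direction. The gene with an unadjusted p under 0.05 was Hoxb5, whose baseline DKO libraries, at 13.1, 12.5 and 11.7 CPM, all lay below the WT libraries, at 17.1 and 17.6, with a log2 fold change of -0.48 ± 0.22 (SE, adjusted p = 1). The sign was opposite to that after DSS. Hoxd4 gave -0.52 ± 0.28 (SE, adjusted p = 1).

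In WT, 11 of the 29 Hox genes differed between DSS and baseline, 10 of them lower after DSS and 1 higher. Of all genes tested 16.5% were lower and 16.9% higher, 33.4% in either direction. The genes that fell were Hoxa2, Hoxa3, Hoxa4, Hoxa7, Hoxa13, Hoxb5, Hoxb8, Hoxb9, Hoxd4 and Hoxd9. Hoxa13 fell by 2.65 on the log2 scale (adjusted p = 0.0170), with the library values given above. Hoxa2, a gene of hindbrain and branchial arch patterning, was at 8.35 and 5.72 CPM in WT at baseline, 4.64, 6.22 and 5.32 in DKO at baseline, 2.37, 1.92 and 1.94 in DSS WT and 1.76, 1.72 and 1.59 in DSS DKO. No DSS library reached the lowest baseline library, and the log2 fold change was -1.76 ± 0.23 (SE, adjusted p = 0.000420) by edgeR's quasi-likelihood test. Hoxb5 gave -1.64 ± 0.22 (SE, adjusted p = 0.000450). Hoxb7, which is expressed in the developing kidney ducts, rose. It was at 8.65 and 12.1 CPM in WT at baseline, 10.3, 10.1 and 12.02 in DKO at baseline, 15.5, 17.8 and 17.1 in DSS WT and 15.5, 19.7 and 19.4 in DSS DKO, and gave 0.70 ± 0.19 (SE, adjusted p = 0.0147) in WT. Its 6 DSS libraries were all above its 5 baseline libraries.

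In DKO, 14 of the 29 differed between DSS and baseline, 12 lower and 2 higher after DSS, Hoxb7 and Hoxd4. Of all genes 11% were lower and 12.6% higher, 23.6% in either direction. The 12 were Hoxa2, Hoxa3, Hoxa4, Hoxa5, Hoxa7, Hoxa9, Hoxa10, Hoxa13, Hoxb8, Hoxd9, Hoxd10 and Hoxd12, so that 8 of the 11 tested Hoxa genes fell. The largest fitted fall was that of Hoxd12, with a log2 fold change of -4.61 ± 0.88 (SE, adjusted p = 0.00443) by edgeR's quasi-likelihood test, followed by Hoxd9 with -3.31 ± 0.79 (SE, adjusted p = 0.0121) and Hoxd10 with -2.99 ± 0.69 (SE, adjusted p = 0.0106). Hoxa13 gave -2.48 ± 0.64 (SE, adjusted p = 0.0225), Hoxb7 0.75 ± 0.17 (SE, adjusted p = 0.00764) and Hoxd4 0.76 ± 0.25 (SE, adjusted p = 0.0496). Hoxb13 and Hoxd13 did not pass, at -1.52 ± 0.54 (SE, adjusted p = 0.0704) and -1.72 ± 0.89 (SE, adjusted p = 0.189). Median log2 fold changes over the tested members were -0.75 in WT and -0.66 in DKO, against -0.015 and 0.011 over all genes.

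The remaining members that fell belong mostly to the Hoxa cluster. Hoxa9, known from blood stem cells and leukaemia, was at 65.2 and 45.4 CPM in WT at baseline, 39.04, 42.5 and 46.9 in DKO at baseline, 45.4, 45.1 and 38.1 in DSS WT and 34.95, 16.1 and 14.01 in DSS DKO. Hoxa10, which acts in the uterus, was at 48.4 and 41.5 CPM in WT at baseline, 36.9, 42.0 and 41.1 in DKO at baseline, 38.2, 35.5 and 32.9 in DSS WT and 33.3, 19.0 and 14.9 in DSS DKO. Hoxa7, a gene of vertebral identity also known from leukaemia, was at 46.4 and 33.6 CPM in WT at baseline, 32.6, 42.8 and 39.6 in DKO at baseline, 28.3, 22.0 and 21.1 in DSS WT and 24.2, 17.5 and 13.7 in DSS DKO. In these 3 genes the lowest libraries were DSS DKO replicates 2 and 3, and DSS DKO replicate 1 lay near or within the DSS WT range. Hoxa5, a gene of lung and gut patterning, was at 13.01 and 10.1 CPM in WT at baseline, 5.88, 16.2 and 11.4 in DKO at baseline, 6.99, 4.60 and 4.53 in DSS WT and 5.68, 2.53 and 1.54 in DSS DKO. Hoxa3, a gene of thymus and parathyroid formation, was at 19.9 and 14.6 CPM in WT at baseline, 13.2, 16.5 and 11.4 in DKO at baseline, 7.17, 4.70 and 4.17 in DSS WT and 9.55, 4.09 and 2.97 in DSS DKO. Hoxa4, a gene of cervical vertebrae, was at 1.13 and 1.17 CPM in WT at baseline, 1.08, 1.14 and 0.447 in DKO at baseline, 0.372, 0.429 and 0.385 in DSS WT and 0.241, 0.182 and 0.317 in DSS DKO. All DSS libraries lay below all baseline libraries for Hoxa3 and Hoxa4. For Hoxa5, baseline DKO replicate 1 (5.88 CPM) lay below DSS WT replicate 1 (6.99 CPM). In the Hoxb cluster Hoxb8, known from myeloid cells and grooming behaviour in mice, was at 15.0 and 17.99 CPM in WT at baseline, 16.8, 15.1 and 17.8 in DKO at baseline, 10.99, 7.92 and 9.25 in DSS WT and 13.1, 12.1 and 9.98 in DSS DKO, with no overlap between baseline and DSS. Hoxb6, a gene of rib and vertebra patterning, passed in no comparison and was at 38.7 and 42.4 CPM in WT at baseline, 44.2, 33.6 and 38.6 in DKO at baseline, 41.9, 28.5 and 36.2 in DSS WT and 63.1, 62.2 and 35.3 in DSS DKO.

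Hoxa6, Hoxb2, Hoxb3, Hoxb4, Hoxd1, Hoxd3, Hoxd8 and Hoxd11 were not given in every library, and none of them passed in any comparison. Hoxb4, a regulator of blood stem cells, had the highest levels among them, from 6.01 to 11.8 CPM. Hoxb3 followed with 3.78 to 10.8 and Hoxa6 with 1.38 to 6.41 CPM, and the other 5 stayed at or below 3.15 CPM.

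Leaving out single libraries moved the counts of calls between DSS and baseline. For WT the count was 4 without baseline WT replicate 1, 5 without baseline WT replicate 2, 6 without DSS WT replicate 2 and 5 without DSS WT replicate 3. Hoxa2 and Hoxb5 were among the genes that fell in each of these 4 settings. For DKO it was 7 without baseline DKO replicate 2 or DSS DKO replicate 2 and 9 without baseline DKO replicate 3, and Hoxa2, Hoxa4, Hoxa7, Hoxd9, Hoxd10 and Hoxd12 fell in all 3 settings. The calls of Hoxd4 were the least steady, lost in 12 of 19 settings in WT and 15 of 19 in DKO.

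No Hox gene passed the test of the interaction, which asks whether the change with DSS differed between genotypes. By edgeR's quasi-likelihood test 0 of 29 passed and 5 had an unadjusted p under 0.05, while DESeq2 called 3, Hoxb5, Hoxd4 and Hoxd12, and of all genes 0.773% were higher and 0.794% lower, 1.57% in either direction. Hoxb5 gave 1.28 ± 0.30 (SE, adjusted p = 0.0536) and Hoxd4 1.57 ± 0.38 (SE, adjusted p = 0.0577), and both passed without DSS DKO replicate 1 or replicate 3. The comparisons within WT and within DKO share no library with each other, but each shares libraries with the comparisons of the genotypes.

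Sequences are shown first for the deleted microRNAs, with the sites their seed could pair with in Hox 3' untranslated regions, since Hoxa11 is a published miR-181 target. Mature sequences are from RefSeq (GRCm38.p6), with the seed, bases 2 to 8, in capitals, and miR-181a and miR-181b share the seed.
miR-181a-5p: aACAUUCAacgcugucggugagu
miR-181b-5p: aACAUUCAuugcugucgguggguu
Searching the longest annotated 3' untranslated region of each Hox gene, for the 36 with at least 100 bases, found a match in 6. The forms searched were TGAATGT (7mer-m8), GAATGTA (7mer-A1) and the 8mer TGAATGTA that joins them. Of these, 5 are shown, with the matches in capitals and up to 8 bases on each side.
Hoxa11: aaaatattTGAATGTAtgcttcat
Hoxb4: gttacaaaTGAATGTgaaattag
Hoxb5: agtgtttcTGAATGTcctcgtgt
Hoxb8: tgtgaagaGAATGTAtcctgtat
Hoxb9: atttgacaGAATGTAacttttct
After DSS, all 6 genes with a match had a log2 fold change above 0 in DKO (median 0.36), 1 of them past the threshold, Hoxb5. Of the 21 tested Hox genes with such a region and no match, 9 had one above 0 (median -0.30). At baseline 1 of the 6 had a value above 0 (median -0.11), and 5 of the 21 (median -0.17). Of all tested genes with such a region 24.5% held a match, and their median after DSS was -0.017 against 0.029 for those without. A match is a description of the sequence, and 4 of the 6 matches are in the Hoxb cluster, whose members without a match also lay mostly above 0. Hoxa11 was at 3.35 and 3.45 CPM in WT at baseline, 3.28, 3.20 and 3.59 in DKO at baseline, 2.08, 1.99 and 2.15 in DSS WT and 3.55, 1.82 and 3.45 in DSS DKO. It gave 0.50 ± 0.25 (SE, adjusted p = 0.221) after DSS and -0.018 ± 0.28 (SE, adjusted p = 1) at baseline, and 34.98% of its exon bases are shared with the antisense Hoxa11os, at 7.43, 5.56 and 4.59 CPM in DSS WT and 6.31, 2.73 and 1.66 in DSS DKO.

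Promoters are shown next. RefSeq windows (GRCm38.p6, 250 bases before to 50 after the start, on the strand of the gene) were at hand for 22 of the 39 genes, 24 windows in all. They are shown for Hoxa13 and Hoxd13, of the paralog 13 group, and for Hoxb8 and Hoxd4, the 2 windows with a match to the motif searched. Matches to TTTATNG on either strand, a form that Cdx and posterior Hox proteins are known to bind, are in capitals. No other motif was searched.
Hoxa13, chr6:52260831-52261130, minus strand: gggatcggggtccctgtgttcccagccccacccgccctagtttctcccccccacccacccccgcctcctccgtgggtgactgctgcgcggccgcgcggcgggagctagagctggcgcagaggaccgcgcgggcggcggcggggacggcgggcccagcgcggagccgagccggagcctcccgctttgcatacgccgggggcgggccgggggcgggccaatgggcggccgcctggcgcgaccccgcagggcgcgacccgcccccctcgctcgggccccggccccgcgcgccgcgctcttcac
Hoxd13, chr2:74667975-74668274, plus strand: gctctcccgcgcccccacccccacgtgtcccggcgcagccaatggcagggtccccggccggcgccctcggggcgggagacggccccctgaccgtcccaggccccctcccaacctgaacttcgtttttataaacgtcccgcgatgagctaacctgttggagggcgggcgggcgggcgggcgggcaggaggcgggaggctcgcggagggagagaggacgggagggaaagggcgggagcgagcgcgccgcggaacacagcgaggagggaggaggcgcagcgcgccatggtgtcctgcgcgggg
Hoxb8, chr11:96281655-96281954, plus strand: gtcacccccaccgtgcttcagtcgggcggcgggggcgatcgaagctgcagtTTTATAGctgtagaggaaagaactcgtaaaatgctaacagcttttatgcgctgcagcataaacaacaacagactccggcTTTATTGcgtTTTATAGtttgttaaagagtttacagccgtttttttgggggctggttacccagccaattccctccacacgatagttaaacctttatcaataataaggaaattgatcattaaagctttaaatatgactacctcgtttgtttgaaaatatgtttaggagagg
Hoxd4, chr2:74721728-74722027, plus strand: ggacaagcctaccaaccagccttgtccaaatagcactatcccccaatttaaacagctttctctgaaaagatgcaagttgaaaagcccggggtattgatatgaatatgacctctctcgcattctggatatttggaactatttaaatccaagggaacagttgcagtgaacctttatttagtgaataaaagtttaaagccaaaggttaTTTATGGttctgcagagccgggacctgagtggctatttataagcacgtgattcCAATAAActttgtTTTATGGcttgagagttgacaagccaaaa
Hoxb8 and Hoxd4 held 3 matches each and were the only windows of the 24 with one (8.33%), against 10.9% of all 32851 promoter windows. They were also the 2 Hox windows lowest in GC, at 42.3% and 39.7%. The windows of Hoxa13 and Hoxd13 were the highest, at 81.0% and 74.3% GC with 45 and 37 CpG, where the median was 14.5 CpG over the Hox windows and 7 over all windows. A match in these letters says nothing of binding in these cells.

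Of the factors upstream of the Hox clusters, Cdx1 and Cdx2 passed in no comparison. Cdx1, a homeobox gene of intestinal identity, was at 148 and 149 CPM in WT at baseline, 207, 237 and 252 in DKO at baseline, 122, 47.8 and 52.9 in DSS WT and 182, 79.8 and 38.0 in DSS DKO. Cdx2 was at 188 and 213 CPM in WT at baseline, 236, 232 and 226 in DKO at baseline, 172, 94.9 and 111 in DSS WT and 233, 172 and 113 in DSS DKO. In both, the DSS libraries varied more than the baseline libraries, and DSS WT replicate 1 and DSS DKO replicate 1 were the highest of their groups. Their log2 fold changes in DKO after DSS were 0.43 ± 0.52 and 0.46 ± 0.26 (SE), with adjusted p = 0.647 and 0.294. Prac1, which lies beside Hoxb13, was not analysed here. Of 9 tested Cdx and regional factors 1 was higher in DKO after DSS and 0 were lower. It was Isx, a homeobox gene of vitamin A metabolism, with 1.02 ± 0.17 (SE, adjusted p = 0.00407 by edgeR's quasi-likelihood test). Between DSS and baseline, 3 of the 9 were lower and 1 higher after DSS in WT, and 3 and 1 in DKO. Of all genes tested 16.5% were lower and 16.9% higher in WT, and 11% and 12.6% in DKO.

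Among the partners and keepers of Hox expression, the number that passed differed by comparison. Of 27 polycomb genes 10 were higher and 5 lower after DSS than at baseline in WT, and 6 and 1 in DKO. Of 13 trithorax genes 4 were higher and 4 lower in WT, and 1 and 0 in DKO. Of all genes tested 16.9% were higher and 16.5% lower in WT, and 12.6% and 11% in DKO. Between DKO and WT after DSS, 5.26% of all genes were higher and 5.98% lower. Of 11 tested genes of the Pbx, Meis, Pknox and Tgif families 0 differed between DKO and WT after DSS. Pbx4, Meis3 and Pknox2 fell after DSS in WT, and Pbx3 and Meis3 in DKO. Meis3 was at 8.12 and 8.98 CPM in WT at baseline, 9.10, 11.8 and 8.12 in DKO at baseline, 3.25, 1.49 and 2.00 in DSS WT and 4.70, 5.04 and 2.90 in DSS DKO. Of 27 polycomb genes 3 were higher in DKO after DSS, among them Cbx7, and 3 lower, Pcgf5, Rbbp4 and Suz12. Cbx7, a reader of the polycomb mark, was at 33.3 and 34.0 CPM in WT at baseline, 30.3, 32.7 and 30.7 in DKO at baseline, 15.6, 9.49 and 10.1 in DSS WT and 34.1, 38.1 and 30.3 in DSS DKO. It fell after DSS in WT (-1.52 ± 0.19 SE, adjusted p = 0.000367), did not pass in DKO (0.13 ± 0.17 SE, adjusted p = 0.620), and was higher in DKO than in WT after DSS (1.54 ± 0.18 SE, adjusted p = 0.000744). Of the 13 trithorax genes 1 was lower in DKO than in WT after DSS and 0 were higher. It was Psip1 (-0.95 ± 0.16 SE, adjusted p = 0.00467 by edgeR's quasi-likelihood test). Of 12 tested retinoic acid genes 2 were higher in DKO after DSS and 0 were lower. By the same test they were Aldh1a3, an enzyme that makes retinoic acid (2.35 ± 0.45 SE, adjusted p = 0.0114), and Dhrs3, which reduces retinal (0.55 ± 0.16 SE, adjusted p = 0.0465).

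Noncoding and flanking genes of the clusters were compared in the same fit. Of 21 tested, 2 were higher in DKO after DSS (Ttll6 and Calcoco1) and 2 lower (Hottip and Mtx2). Hottip, the noncoding RNA beside Hoxa13, was at 18.2 and 17.95 CPM in WT at baseline, 17.6, 20.1 and 17.8 in DKO at baseline, 9.44, 8.13 and 7.10 in DSS WT and 4.63, 2.37 and 1.27 in DSS DKO. Its DSS DKO libraries were all below DSS WT, at -1.57 ± 0.34 (SE, adjusted p = 0.0159) by edgeR's quasi-likelihood test, where those of Hoxa13 overlapped. Hoxa11os, with baseline levels of 38.3 and 30.2 CPM in WT and 18.2, 30.5 and 18.02 CPM in DKO, fell after DSS in both genotypes, by 2.55 in WT and 2.63 in DKO on the log2 scale. Of the microRNA genes of the clusters, Mir196a-1 had counts in every library, from 3.78 to 7.27 CPM, Mir10a stayed at or below 0.464 CPM, Mir10b had at most 1 count in a library, and Mir196b, Mir196a-2 and Mir615 had 0 counts in all 11.

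Genes that mark segments of the colon were read beside the paralog 13 genes. Of 6 genes listed for the proximal colon 3 were higher in DKO after DSS, Slc9a3, Slc10a2 and Fabp1, and 1 lower, Fabp2. Slc10a2, the bile acid transporter, was present at 16.1 and 25.8 CPM in WT at baseline, 25.3, 14.1 and 16.1 in DKO at baseline, 20.0, 23.7 and 23.4 in DSS WT and 116, 164 and 223 in DSS DKO. Slc9a3, a sodium-proton exchanger, was at 249.9 and 197 CPM in WT at baseline, 244, 224 and 202 in DKO at baseline, 156, 128 and 139 in DSS WT and 751, 985 and 1529 in DSS DKO. Both were highest in DSS DKO replicate 3, the library lowest in Hoxd13. Atp12a, a proton pump listed for the distal colon, was at 125 and 110.0 CPM in WT at baseline, 136, 135 and 119 in DKO at baseline, 282, 129 and 88.5 in DSS WT and 151, 25.6 and 7.51 in DSS DKO, low in the same DSS DKO replicates as Hoxd13, and did not pass (-1.44 ± 0.87 SE, adjusted p = 0.330). Scnn1b, a sodium channel subunit on the distal list, was at 5.45, 7.14 and 6.94 CPM in DSS WT and 13.5, 19.3 and 21.6 in DSS DKO and was higher in DKO (1.48 ± 0.19 SE, adjusted p = 0.000971), the 1 of 5 on that list to pass. Of 13 tested stromal genes 4 were higher in DKO after DSS and 0 lower, among them Dcn at 8.13, 6.92 and 10.3 CPM in DSS WT and 12.6, 47.8 and 57.5 in DSS DKO, while the summed stromal level was 322 to 377 and 251 to 415 CPM. Of 10 genes listed for the small intestine 1 was higher, Sis, a brush border disaccharidase, at 6.15, 8.20 and 7.41 CPM in DSS WT and 10.8, 17.2 and 26.1 in DSS DKO, and 1 was lower, Fabp6, an ileal bile acid binding protein, at 8.23, 11.6 and 6.86 and 3.28, 1.66 and 1.95. Of 5 tested squamous genes of the anal canal 1 was higher, the desmosome gene Dsg3, at 0.353, 0.447 and 0.440 CPM in DSS WT and 3.59, 3.85 and 1.59 in DSS DKO, and 0 were lower. The 8 squamous markers summed to 1.17 to 2.43 CPM at baseline, 3.03 to 4.53 in DSS WT and 5.49 to 10.1 in DSS DKO, with Sprr3 at 0 in every library and Trp63 at 0 in DSS WT. Of 5 tested endothelial genes 0 passed, and the 7 on that list summed to 4.17 to 5.35 CPM in DSS WT and 2.74 to 3.99 in DSS DKO. The part of tissue segment, squamous cells, stroma and leukocytes in the Hox values was not tested. With a GC offset in the fit, chosen after seeing the data, Hoxb5 and Hoxd4 stayed higher and Hoxa9, Hoxa10 and Hoxd12 were called lower in DKO after DSS.

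**Figure D5:**
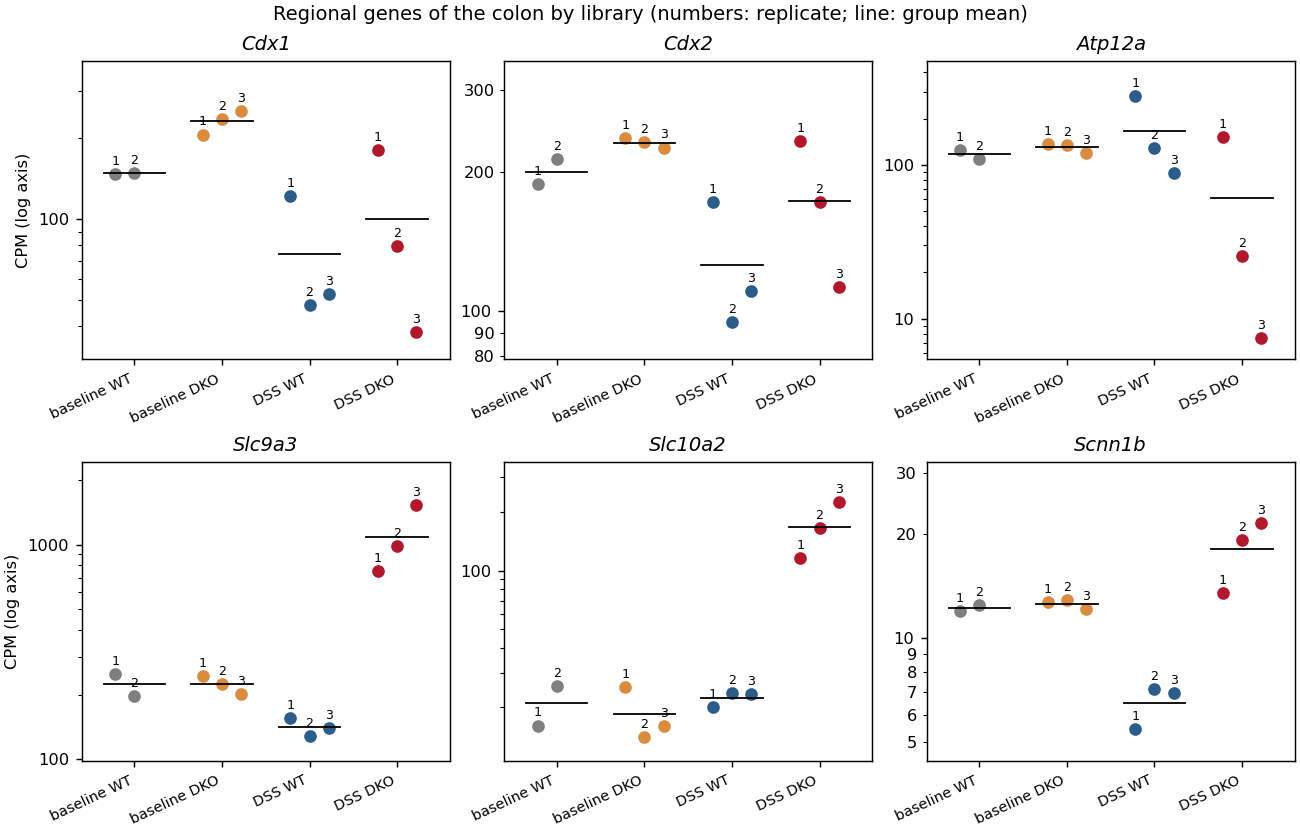
CPM on a log axis of Cdx1 and Cdx2 and of the regional genes Atp12a, Slc9a3, Slc10a2 and Scnn1b in each library, with replicate numbers beside the points and group means as lines. Slc9a3 and Slc10a2 are high in all 3 DSS DKO libraries, and Atp12a is at 25.6 and 7.51 CPM in DSS DKO replicates 2 and 3.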

How the data were processed

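Colonic epithelial cells were enriched on Percoll and their oligo(dT)-selected RNA was sequenced after preparation with the NEBNext Ultra II kit, per the labels' protocols. STAR and the build mm10 are named in the submitters' processing notes. Aligner version, read counter, annotation and strandedness were not given in the sources used here. Raw counts per gene were deposited by the authors, 1 column for each of 11 libraries, with no normalization. Filtering of these by filterByExpr of edgeR 4.0.16 (R 4.3.3) at a minimum count of 10 kept 19267 genes (99.9% of counts or more in every library). A robust quasi-likelihood fit, TMM-scaled, estimated 1 mean per group from the 11 libraries together, and 5 two-sided contrasts were tested with Benjamini-Hochberg adjustment at 0.05 over all genes. Standard errors are the log2 fold change over the square root of F. CPM values are TMM-scaled. A count of 0 allows up to 3 counts, for counting error only.

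The labels name biological replicates but do not tie a library to 1 mouse, and p-values then measure only how far these samples spread, which may be technical. Within groups every pair of libraries differed beyond sampling noise (chi-square per degree of freedom 15.1 to 823). The pair at 823 was baseline DKO replicates 1 and 3, where Rn18s-rs5, included here, made 23.0% and 0.315% of counts. Gene positions, exons and 3' untranslated regions are from GENCODE M21 (GRCm38), which held 93% of the symbols and all 39 Hox genes. Lengths are the union of annotated exons. The genes described, the gene lists and the tests were chosen with earlier results of these data known. A member is given library by library if it passed in any comparison or was among the 8 with the highest mean CPM, with Hoxa11, Cdx1 and Cdx2 added. Not all genes of the lists are reported here. From the other lists up to 4 genes that passed are named. Alternatives were DESeq2 1.42.0 (size factors and Wald test), no filter and a filter at 30 counts, only the 2 groups compared, the replicate number as a block, each library left out and Rn18s-rs5 (0.128% to 23.0% of counts) left out. For levels they were raw totals and the longest transcript as length. A GC offset (per-library loess trend of log2 CPM, prior count 2, on transcript GC, known for 96.8% of tested genes and all 29 tested Hox genes) was chosen after seeing the data.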

Additional observations from a re-analysis of the deposited data

Results flagged for a closer look

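Of the Hox genes 0 passed the test of the interaction of genotype and DSS. Of the genes listed beside them, 7 did, with edgeR's quasi-likelihood test, adjusted by Benjamini-Hochberg over all genes, so that their change with DSS differed between DKO and WT. The interaction log2 fold change of Slc9a3 was 2.95 ± 0.32 (SE, adjusted p = 0.00430) and that of Slc10a2 was 3.08 ± 0.42 (SE, adjusted p = 0.0123). Cbx7 gave 1.65 ± 0.26 (SE, adjusted p = 0.0152) and Scnn1b 1.44 ± 0.27 (SE, adjusted p = 0.0268). Ttll6, which flanks the Hoxb cluster, gave 1.12 ± 0.21 (SE, adjusted p = 0.0251), and Calcoco1, which flanks the Hoxc cluster, gave 0.91 ± 0.19 (SE, adjusted p = 0.0411). Ly6g, a granulocyte gene of the leukocyte list, gave 1.86 ± 0.24 (SE, adjusted p = 0.0106). These 7 were higher in all 3 DSS DKO than in all 3 DSS WT libraries.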

How the results depend on the processing

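The calls depend on single libraries and on the spread model. Of the 29 tested Hox genes, the number called in DKO against WT after DSS was 2, and 13 with no filter on low counts (of 38 Hox genes), 4 with a filter at 30 counts, 9 with DESeq2, 0 with only the 2 groups compared, 5 with a GC offset and 5 with the replicate number as a block. Of these, 8, 1, 4, 0, 3 and 2 were lower in DKO, in that order. With single libraries left out the number ran from 0 to 11. The 2 genes called, Hoxb5 and Hoxd4, were among the calls under each of these settings except the 2-group fit and the fits without DSS WT replicate 2 or 3 or DSS DKO replicate 2. For DSS against baseline in WT the number was 11, and 7 with a GC offset, with a range of 4 to 14 over the libraries left out. For DSS against baseline in DKO it was 14, and 8 with only the 2 groups compared, with a range of 7 to 17. For the interaction it was 0, and 5 with no filter, 3 with DESeq2 and 2 with a GC offset, with a range of 0 to 5. At baseline it stayed 0 in all 19 settings. The cause of these shifts was not tested. The fits that leave libraries out also hold fewer samples. Hoxa13 in DKO against WT after DSS was 0.0014 and took the other sign with DESeq2 size factors (-0.0067), no filter (-0.019), a filter at 30 counts (-0.0015), DESeq2 (-0.013), only the 2 groups compared (-0.011), the replicate block (-0.23), Rn18s-rs5 left out (-0.0065) and a GC offset (-0.10), and ran from -1.15 to 0.47 over the libraries left out. No other gene followed changed sign. The labels do not say whether the replicate numbers pair the samples. Of 15 same-numbered pairs, 4 deviated together with r above 0.1 (range -0.071 to 0.30). Between DSS WT and DSS DKO, replicates 1 and 3 did so (r = 0.30 and 0.20), with replicate 1 against replicate 3 at -0.30 and -0.18. DSS WT replicate 2 did not correlate best with its own number in DSS DKO. Whether same-numbered DSS libraries share a batch was not tested. With raw totals in place of TMM the summed Hox level of baseline WT was 617 instead of 589 CPM and that of baseline DKO 487 instead of 537. With the longest transcript as length the paralog 13 share was 33.7% instead of 36.9% in baseline WT and 35.6% instead of 38.7% in baseline DKO. The mean paralog 13 share of DSS DKO, 16.1%, was 10.2% without replicate 1 and 21.2% without replicate 3. Depth limits Hoxd9 to Hoxd12, Hoxd1, Hoxd3 and the Hoxc genes, which had few or no counts in some libraries.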
